A study of Mus musculus with 4 samples.

Results

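The genes of oxidative phosphorylation were followed in mouse CD8+ T cells with and without interferon α (IFNα). They were the protein-coding rows of the deposited gene count table whose symbol starts with Nduf, Uqcr, Cox4 to Cox8, Atp5, mt-Nd, mt-Co, mt-Cyt or mt-Atp, or is Sdha, Sdhb, Sdhc or Sdhd. This name rule found 107 rows of 54532, of which 94 lie in the nuclear genome and 13 in the mitochondrial genome, and 99 of the 107 passed the filter on low counts. Atp5o had 2 rows in the table, with all of its counts in the same row. The name rule takes no measured value, leaves out cytochrome c1 (Cyc1) and cytochrome c (Cycs), and takes in the complex I assembly factors named Ndufaf.

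RNA-seq was done on splenic CD8+ T cells of C57BL/6 mice, sorted as naïve cells on magnetic beads and activated for 48 h by antibodies to CD3 and CD28. The IFNα group (2 samples) had IFNα at 2000 U/ml during those 48 h, and the control group (2 samples) had the same stimulation without it. IFNα belongs to the type I interferons, which signal through the receptor chains IFNAR1 and IFNAR2 and switch on antiviral genes. Whether the samples of a group came from separate mice or cultures is not stated, so the p-values cover only the differences between these 4 samples, and those may be technical.

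Library totals were 16096121 and 17676062 counts in the IFNα samples, against 17375960 and 16955366 counts in the control samples. Of the 3 genes listed as markers of the response to interferon (Isg15, Mx1, Irf7), 3 were called higher, with a summed level of 1607 and 1615 CPM (counts scaled by library size) in IFNα samples, against 47.9 and 39.8 CPM in control samples. The 8 CD8 T cell markers summed to 3437 and 3589 CPM in IFNα samples, against 4418 and 3377 CPM in control samples, with 7 of 8 at a log2 fold change below 0 and 0 called. Cd8a, the exception, stood at 1058 and 1078 CPM in IFNα samples and at 1051 and 968 CPM in control samples, and Cd4 stayed under 1 CPM in all 4 samples. The 6 B cell markers summed to 327 and 319 CPM in IFNα samples, against 454 and 380 CPM in control samples, nearly all of it Ighm, with Pax5 and Ms4a1 at 0 counts in both IFNα samples. The 6 myeloid markers summed to 6.21 and 7.55 CPM in IFNα samples, against 17.97 and 15.95 CPM in control samples. Most of this was Lyz2, with 4.957 and 6.097 CPM in IFNα samples, against 16.53 and 13.96 CPM in control samples. Csf1r had a log2 fold change of -0.02. Itgam, Adgre1 and Cd14 stayed under 1 CPM in all 4 samples and were not tested, and C1qa was at 0 in all samples. Lyz2 was the 1 marker of these lists, outside the interferon markers, that was called, and was lower (adjusted p = 0.0297 in edgeR). The part of such cells in the values below was not tested, and in bulk RNA fewer cells of a type and less RNA per cell cannot be told apart.

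Oxidative phosphorylation runs in the inner mitochondrial membrane. Complexes I (NADH dehydrogenase) and II (succinate dehydrogenase) pass electrons to ubiquinone, complex III passes them to cytochrome c, and complex IV (cytochrome c oxidase) passes them to oxygen. Complexes I, III and IV pump protons, and complex V (ATP synthase) uses the gradient to make ATP. The mitochondrial genome encodes the membrane core of complexes I, III, IV and V, while complex II and all other subunits are nuclear, so each of those 4 complexes needs transcripts of both genomes. T cells enlarge their mitochondria and raise respiration after activation, and nuclear genes of the pathway are known targets of the factors NRF1, YY1 and the ETS family.

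How far reads can be assigned to a mitochondrial gene differs between the genes, because a stretch of chromosome 1 holds nuclear copies of mitochondrial DNA. The share of the 100-base windows of each gene that also occur in another annotated transcript was counted. Of the 13 mitochondrially encoded genes, 5 had no such window (mt-Nd1, mt-Nd5, mt-Nd6, mt-Cytb, mt-Atp8). Another 5 had over 90% of their windows shared (mt-Co2, mt-Co3, mt-Atp6, mt-Nd3, mt-Nd4l). Between these lay mt-Nd4 with 60.8%, mt-Co1 with 30.8% and mt-Nd2 with 3.2%. Over 681 aligned bases mt-Co2 differed from its copy Gm28661 at 0 bases, and over 345 bases mt-Nd3 differed from its copy Gm28438 at 1 base. Stretches of 60 bases of both genes and their copies are shown because they set what the counts of these genes can mean, with the differing base of mt-Nd3 in capitals. They come from the GENCODE transcripts on GRCm38, mt-Co2 from the + strand at chrMT:7323-7382, Gm28661 from the - strand at chr1:24615196-24615255, mt-Nd3 from the + strand at chrMT:9459-9518 and Gm28438 from the - strand at chr1:24613060-24613119.
mt-Co2: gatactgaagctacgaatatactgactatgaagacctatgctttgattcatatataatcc
Gm28661: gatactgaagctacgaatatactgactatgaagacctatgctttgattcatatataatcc
mt-Nd3: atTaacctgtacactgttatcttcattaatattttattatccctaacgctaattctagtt
Gm28438: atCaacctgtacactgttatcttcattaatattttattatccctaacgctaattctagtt

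The 5 genes with a near-identical copy had levels of 14.9 to 75.9 CPM per kilobase of gene length, as means over the 4 samples, while the other 7 tested mitochondrially encoded genes had 675 to 4369 CPM per kilobase. The rows of the copies did not hold such levels either. mt-Co2 had 359 and 425 counts in IFNα samples, against 555 and 419 counts in control samples, and Gm28661 had 170 and 184 counts, against 244 and 209 counts. mt-Co1, with 30.8% of its windows shared and on the same strand, had 99608 and 118705 counts in IFNα samples and 110580 and 131033 counts in control samples. No source used here gives how reads with several equal matches were counted, and the levels of these 5 genes are given as counted, without being read as RNA levels. mt-Atp8 had no shared window but stood at 0.173 to 0.251 CPM in the 4 samples and was not tested.

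**Figure D1:**
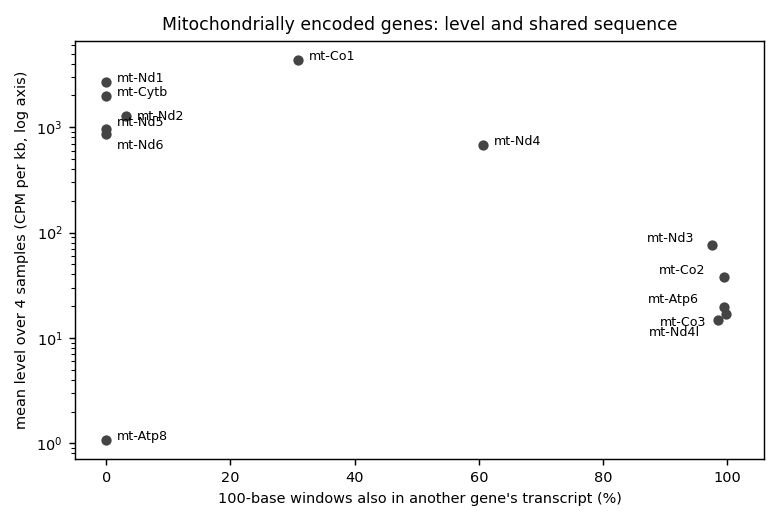
Level of the 13 mitochondrially encoded genes (mean over the 4 samples, CPM per kilobase, log axis) against the percentage of their 100-base windows found in another annotated transcript. The 5 genes beyond 90% lie between 14.9 and 75.9 CPM per kilobase, and mt-Atp8 is low with no shared window.

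For the nuclear genes, promoter sequences of RefSeq on GRCm38 (250 bases before to 50 after the gene start) were used. They covered 73 of the 94 rows, those with a promoter at hand and a count in any sample. The letters CGCANGCGC of the NRF1 motif were found in 25 of these 73 promoters (34.2%), against 7.12% of the promoters of all 27025 genes. Those 27025 genes were not filtered on counts, unlike the members. The YY1 letters AAGATGGCG were in 8 of 73 (11.0%, against 1.64%), the ETS letters CCGGAAGT in 5 of 73 (6.85%, against 4.31%), and the letters GAAANNGAA of the interferon-stimulated response element in 7 of 73 (9.59%, against 9.76%), with both strands searched. None of these motifs contains another, and a match is a description, not a site. Of the 4 motifs searched, the NRF1 letters were the most frequent in these promoters. The highest-level member with these letters before its start is shown for each group of nuclear genes with a match wholly before a start. The first match on the printed strand is in capitals. Matches on the other strand are not marked, such as gcgcttgcg in the Ndufa8 stretch. In complex III the matches lay across or after the start, and none is shown. The stretches lie at chr2:36049339-36049372 (Ndufa8, complex I, - strand), chr4:24897946-24898004 (Ndufaf4, complex I assembly, + strand), chr9:50603894-50603952 (Sdhd, complex II, - strand), chr5:115349086-115349144 (Cox6a1, complex IV, - strand) and chr15:102671055-102671113 (Atp5g2, complex V, - strand).
Ndufa8: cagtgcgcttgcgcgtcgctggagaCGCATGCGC
Ndufaf4: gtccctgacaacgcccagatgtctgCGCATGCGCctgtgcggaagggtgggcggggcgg
Sdhd: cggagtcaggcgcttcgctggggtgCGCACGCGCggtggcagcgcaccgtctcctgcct
Cox6a1: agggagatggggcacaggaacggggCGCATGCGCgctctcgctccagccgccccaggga
Atp5g2: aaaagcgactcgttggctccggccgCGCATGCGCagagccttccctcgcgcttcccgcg

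The motif was found in 8 of 13 promoters of complex V, 3 of 5 of complex III and 2 of 3 of complex II. It was in 9 of 32 of complex I subunits, 2 of 7 of complex I assembly factors and 1 of 13 of complex IV. These groups are small, and the differences between them were not tested. Among tested genes the median log2 fold change was -0.32 for the 25 with the NRF1 letters and -0.30 for the 47 without.

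The comparison of IFNα with control samples asked how IFNα acts on gene expression in activated CD8+ T cells, and here it was read for the respiratory chain. None of the 99 tested genes was called in either direction by edgeR's quasi-likelihood test at a Benjamini-Hochberg adjusted p under 0.05: 0 were called higher and 0 lower. Over all 14417 genes tested, 1.65% were called (1.43% higher and 0.222% lower). Without adjustment, 3 members (Uqcrb, mt-Nd6, Ndufaf7) had a p under 0.05 and were lower and 0 were higher, while 5.55% of all genes were lower and 5.72% higher. DESeq2 and edgeR's exact and likelihood ratio tests each called 1 member of 99 lower, Uqcrb, and 0 higher. Over all genes DESeq2 called 0.603% lower, the exact test 1.55% and the likelihood ratio test 1.62%, so that 1 of 99 is near those shares. limma-voom called 0 members. The 95% intervals of the fold changes had a median half-width of 0.50 on the log2 scale, and 82 of the 99 lay wholly above -1, while 95 of 99 lay wholly below 0.5.

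The fold changes were nearly all on the same side of 0. The fitted log2 fold change, IFNα over control, was below 0 in 96 of 99 members, against 51.8% of all genes, with a median of -0.30 over the members and -0.01 over all genes. Ndufab1, Ndufaf2 and Atp5s were the exceptions, at 0.04, 0.00081 and 0.06. Both IFNα samples lay below both controls in 30 of the 99 members, against 23.4% of all genes, both lay above in 0 members, against 23.1%, and the groups overlapped in 69 members.

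**Figure D2:**
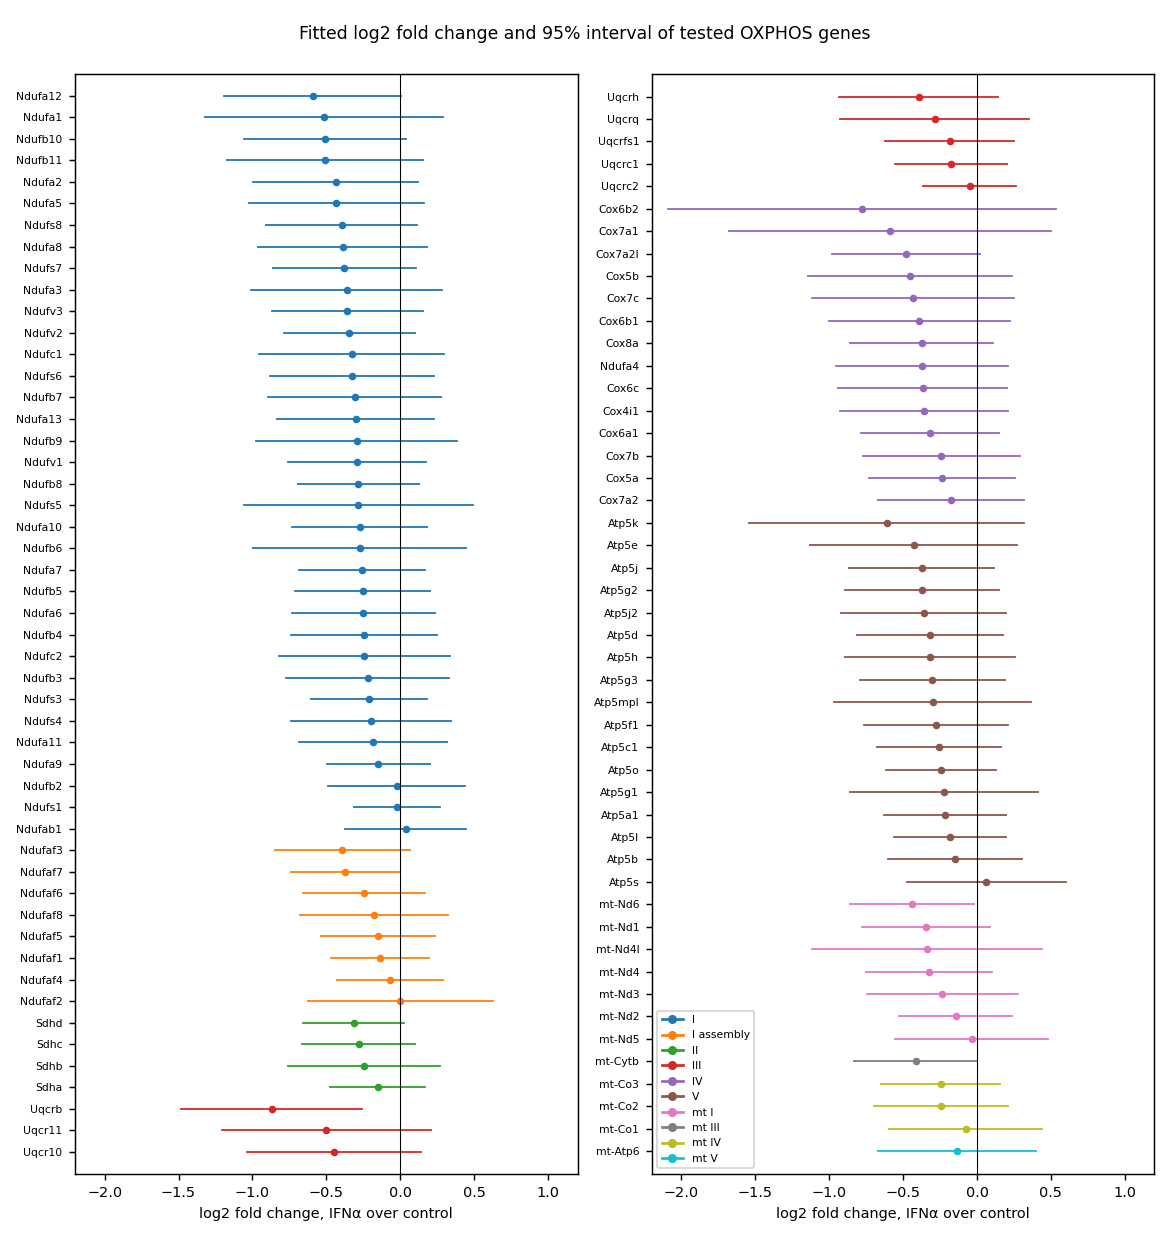
Fitted log2 fold change, IFNα over control (points), with its 95% interval (lines) for 98 tested members, by complex (colours, mt for mitochondrially encoded). The points lie left of 0 in 95 of the 98 genes, and nearly all intervals hold 0, with Uqcrb at -0.87 the lowest.

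The shift rested on 1 of the control samples for the 87 nuclear members, and less so for the 12 mitochondrially encoded members. Control 1 had the highest level of the 4 samples in 92 of the 99 members and control 2 in 5. The ratio of control 2 to control 1 had a median of -0.50 on the log2 scale over the members (0.01 over all genes), which is wider than the ratio between the groups, and the ratio of IFNα 2 to IFNα 1 had a median of 0.13. Relative to its own mean over the samples, the median member stood at -0.20 in IFNα 1, -0.06 in IFNα 2, 0.39 in control 1 and -0.11 in control 2, so that control 2 lay between the IFNα samples. Without control 1, the median log2 fold change of the members was -0.02, 57 of 99 were below 0 and 4 were called lower (mt-Nd1, mt-Cytb, mt-Nd6, Uqcrb), against 6.25% of all genes called lower. Without control 2, the median was -0.51 and 82 of 99 were called lower, against 21.6% of all genes.

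**Figure D3:**
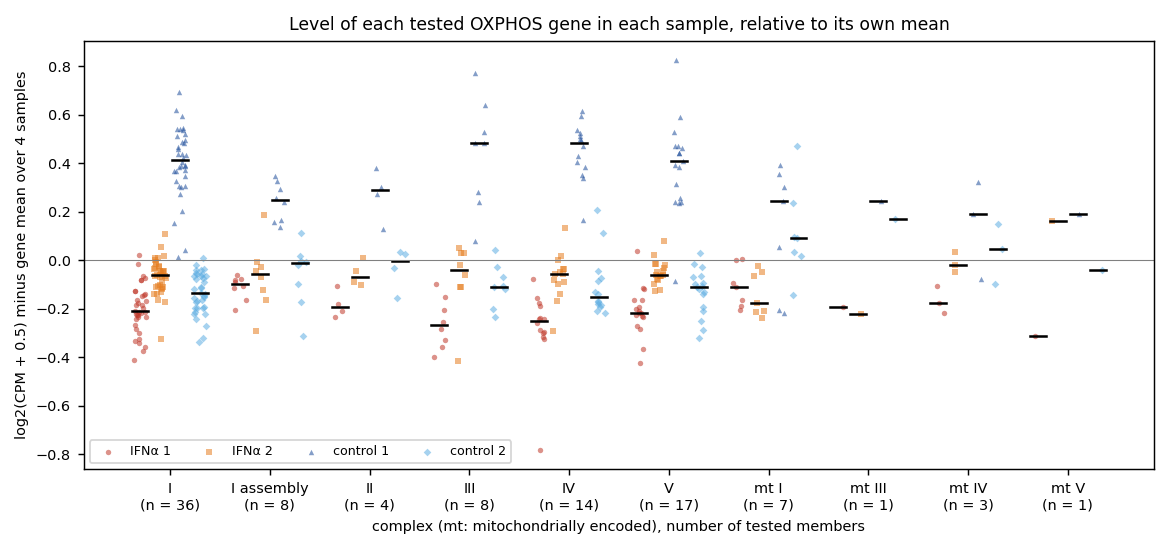
Level of each tested member in each sample as log2(CPM + 0.5) minus the mean of that gene over the 4 samples, by complex. Black bars are medians over the members. Control 1 (dark triangles) stands highest in every nuclear group, with group medians of 0.25 to 0.48, while control 2 has group medians below 0 there, and in the mitochondrially encoded complexes I, III and IV both controls have medians above both IFNα samples.

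Gene length moved with the fold changes. The members were short, with a median length of 1545 bases against 3738 bases over all genes tested. Across the 99 members, which share the same 4 libraries, the log2 fold change and log2 length had a Pearson r of 0.45 and a Spearman rho of 0.43, while the ratio of control 2 to control 1 and log2 length had a Pearson r of 0.17. Between the controls, other genes over 1000 and up to 2000 bases long also had lower values in control 2 than in control 1 (median log2 ratio -0.26, n = 1860), and those over 3000 bases higher ones (0.11, n = 8708). The shortest other genes, of up to 1000 bases, had a smaller difference (-0.10, n = 1548), so the ratio did not change steadily with length. Within the same lengths the members went further, with a median ratio of -0.55 up to 1000 bases (n = 27), -0.53 between 1000 and 2000 bases (n = 39) and -0.34 over 3000 bases (n = 20). With an offset for gene length in each sample, the median log2 fold change of the members was -0.16, 92 of 99 were below 0 and 0 were called. What set control 1 apart was not tested further.

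Nuclear and mitochondrially encoded genes differed in how the controls were placed. The median log2 fold change was -0.30 over 87 nuclear and -0.24 over 12 mitochondrially encoded genes. Between the controls, control 2 over control 1, it was -0.52 for nuclear and -0.15 for mitochondrially encoded genes. Set against control 1, the mean of the IFNα samples was lower in 86 of 87 nuclear genes and in 9 of 12 mitochondrially encoded genes. Set against control 2, it was lower in 48 of 87 nuclear genes (median -0.01) and in 11 of 12 mitochondrially encoded genes (median -0.18). These comparisons share the IFNα samples and are given side by side only.

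**Figure D4:**
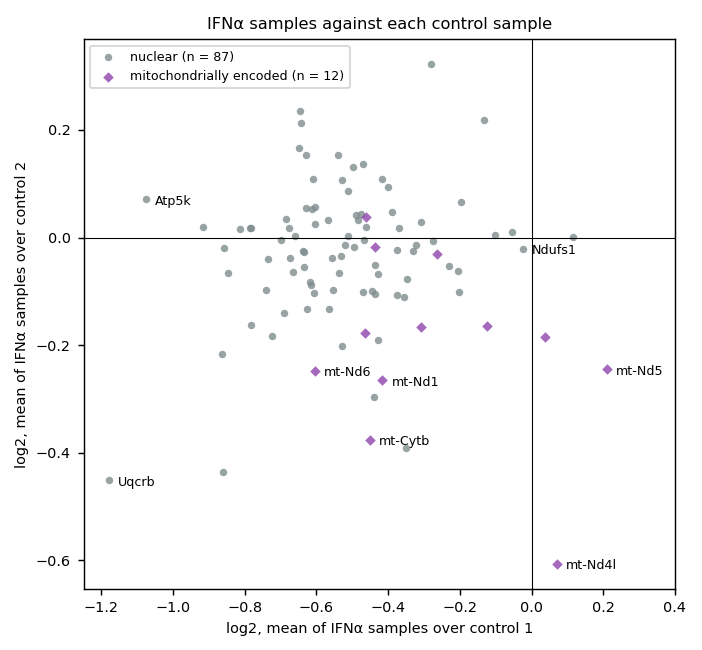
Mean of the IFNα samples over control 1 (horizontal) and over control 2 (vertical), both as log2 ratios. Grey circles are 87 nuclear members. Purple diamonds are 12 mitochondrially encoded members, among them the 5 with over 90% of their windows shared. Nuclear members lie on both sides of 0 on the vertical axis and, in 86 of 87 genes, left of 0 on the horizontal axis, while 11 of 12 mitochondrially encoded members lie below 0 on the vertical axis.

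As a share of all counts, the mitochondrially encoded members took 1.46% and 1.49% in IFNα samples, against 1.67% and 1.83% in control samples. The nuclear members took 0.824% and 0.890% in IFNα samples, against 1.22% and 0.919% in control samples. Both shares were lower in both IFNα samples than in both controls, for the nuclear genes by little against control 2. On the TMM-scaled CPM used for the single genes the nuclear sums overlapped, at 8325 and 9136 CPM in IFNα samples and 12289 and 8873 CPM in control samples, while the mitochondrially encoded sums did not, at 14792 and 15327 CPM in IFNα samples, against 16767 and 17646 CPM in control samples. The ratio of mitochondrially encoded to nuclear counts was 1.78 and 1.68 in IFNα samples, within the range of the controls at 1.36 and 1.99.

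Among the mitochondrially encoded subunits of complex I, mt-Nd1 (chrMT:2751-3707 on GRCm38), a membrane core subunit beside the ubiquinone site, had 2284 and 2267 CPM in IFNα samples, against 3037 and 2736 CPM in control samples. Its log2 fold change was -0.34 (SE 0.18, adjusted p = 0.54 in edgeR). Both IFNα samples lay below both controls, as they did for mt-Nd2, mt-Nd4 and mt-Nd6. mt-Nd6, the protein gene on the light strand of the genome, had 384 and 371 CPM in IFNα samples, against 574 and 448 CPM in control samples, with a log2 fold change of -0.44 (SE 0.17, 95% interval -0.86 to -0.02, adjusted p = 0.428 in edgeR), and of -0.24 without control 1. mt-Nd2 had 1240 and 1281 CPM in IFNα samples, against 1374 and 1412 CPM in control samples. mt-Nd4, which shares 60.8% of its windows with Gm28439 on chromosome 1, had 853 and 798 CPM in IFNα samples, against 1138 and 933 CPM in control samples. mt-Nd5, a proton-pumping subunit, overlapped between the groups, at 1741 and 1709 CPM in IFNα samples and 1491 and 2044 CPM in control samples. mt-Nd3 and mt-Nd4l, which share their sequence with chromosome 1, overlapped too, at log2 fold changes of -0.23 and -0.34.

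Among the nuclear subunits of complex I, the log2 fold change was below 0 in 35 of 36, with a median of -0.29 (-0.0017 without control 1), and both IFNα samples lay below both controls in 8 of 36, a share near the 23.4% of all genes. Ndufs1, an iron-sulphur subunit on the path of electrons from NADH, differed little between the samples. It had 101 and 96.8 CPM in IFNα samples and 101 and 100 CPM in control samples. Its log2 fold change was -0.02 (95% interval -0.31 to 0.27), and it is the longest of the members named here, at 8086 bases. Ndufb11, an accessory subunit in the membrane arm, had the highest level per length of the group, at 89.6 CPM per kilobase, with 61.9 and 72.6 CPM in IFNα samples and 121 and 70.2 CPM in control samples. Control 1 stood apart there and control 2 lay between the IFNα samples. Ndufa12, an accessory subunit of the peripheral arm, had the lowest fold change of the group, with 14.5 and 13.4 CPM in IFNα samples, against 25.8 and 16.3 CPM in control samples (log2 fold change -0.59, SE 0.24, adjusted p = 0.449 in edgeR), and -0.22 without control 1. Ndufab1, the mitochondrial acyl carrier protein, which also serves fatty acid and iron-sulphur cluster synthesis, had the highest, at 57.4 and 64.8 CPM in IFNα samples and 66.9 and 52.4 CPM in control samples.

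The 8 complex I assembly factors of the Ndufaf family help to build the complex and leave it afterwards. They had low levels, of 5.39 to 21.4 CPM per kilobase, and a median log2 fold change of -0.16. Ndufaf7, a methyltransferase of mitochondria, had 27.4 and 23.6 CPM in IFNα samples, against 34.7 and 31.3 CPM in control samples (log2 fold change -0.37, unadjusted p = 0.046 and adjusted p = 0.433 in edgeR). Ndufaf3, which joins early subcomplexes, had 9.35 and 9.64 CPM in IFNα samples, against 13.9 and 11.0 CPM in control samples, so that these groups did not overlap either. Ndufaf2, a relative of Ndufa12 that holds its place during assembly, averaged 16.1 ± 2.83 CPM in IFNα samples and 16.1 ± 4.83 CPM in control samples (SD, n = 2 each), with 62.4% of its windows shared with the annotated gene B230220B15Rik, which had 0 counts. Ndufaf8, the partner of Ndufaf5, had the highest level per length of this group and overlapped, at 16.7 and 16.8 CPM in IFNα samples and 22.3 and 15.7 CPM in control samples.

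Complex II, which is also an enzyme of the tricarboxylic acid cycle, had all 4 of its genes below 0, with a median of -0.26 (-0.10 without control 1). Sdhd, a membrane anchor, had 105 and 113 CPM in IFNα samples, against 147 and 124 CPM in control samples (log2 fold change -0.32, SE 0.14, adjusted p = 0.48 in edgeR), and a log2 fold change of -0.19 without control 1. Sdha, the flavoprotein that oxidises succinate, had 301 and 314 CPM in IFNα samples, against 354 and 330 CPM in control samples, a log2 fold change of -0.15. Both IFNα samples lay below both controls in 3 of the 4 genes, against 23.4% of all genes, with Sdhb the exception.

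In complex III, mt-Cytb (chrMT:14145-15288), the haem-carrying cytochrome b and the only mitochondrially encoded subunit, had 1966 and 1928 CPM in IFNα samples, against 2663 and 2528 CPM in control samples. The IFNα samples lay close together and both lay below both controls. The log2 fold change was -0.41 (SE 0.17, unadjusted p = 0.0504, adjusted p = 0.446 in edgeR) and was -0.37 without control 1. Over the 17 alternatives it ranged from -0.48 to -0.27.

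Uqcrb, a small nuclear subunit that packs against cytochrome b, stood furthest from 0 of the 99 tested members. It had 38.6 and 38.2 CPM in IFNα samples, against 87.5 and 52.6 CPM in control samples. Its log2 fold change was -0.87 (SE 0.25, 95% interval -1.48 to -0.26), with an unadjusted p of 0.0139 and an adjusted p of 0.267 in edgeR. The adjusted p was 0.0276 in DESeq2, 0.0329 in the exact test and 0.0313 in the likelihood ratio test, and ranged up to 0.39 over the alternatives. Without control 1 the log2 fold change was -0.45. The gene lies at chr13:66900617-66905378 on the - strand, and 8.89% of its windows occur in other annotated transcripts.

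Uqcrb was the 1 of 8 nuclear subunits of complex III with both IFNα samples below both controls, against 23.4% of all genes. Uqcr10, the highest of them per length at 168 CPM per kilobase, had 74.4 and 91.3 CPM in IFNα samples and 138 and 88.2 CPM in control samples. Uqcrc2, a core protein, had 139 and 155 CPM in IFNα samples and 158 and 146 CPM in control samples, a log2 fold change of -0.05 (95% interval -0.36 to 0.27).

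In complex IV, mt-Co1 (chrMT:5328-6872), the catalytic subunit with the oxygen site, had the highest level of all members, at 4369 CPM per kilobase. It had 6250 and 6893 CPM in IFNα samples and 6391 and 7465 CPM in control samples, and the groups overlapped (log2 fold change -0.08, 95% interval -0.59 to 0.44). mt-Co2, which takes electrons from cytochrome c, and mt-Co3 were both at -0.24, on the low counts described above. The 14 tested nuclear genes of the complex had a median of -0.37 (0.0059 without control 1). Cox8a, a small membrane subunit, had the highest level per length of all nuclear members, at 363 CPM per kilobase, with 163 and 182 CPM in IFNα samples, against 262 and 185 CPM in control samples. Cox7a2, the form of subunit VIIa used in most tissues, had 58.7 and 65.3 CPM in IFNα samples and 82.8 and 57.4 CPM in control samples.

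Isoforms of complex IV known from muscle, heart, lung or testis were at or near 0. Cox6b2, the testis form, had 10 and 28 counts in IFNα samples and 40 and 28 counts in control samples, and Cox7a1 stayed at or under 1.03 CPM. Cox4i2, Cox6a2, Cox8b and Ndufa4l2 had at most 0.465 CPM in any sample, and Cox7b2 and Cox8c had 0 counts in all 4.

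In complex V, Atp5a1 and Atp5b, the α and β subunits of the catalytic head, had the highest levels of the nuclear group, at 296 and 291 CPM per kilobase. Atp5a1 had 853 and 864 CPM in IFNα samples, against 1092 and 906 CPM in control samples, and Atp5b had 1132 and 1210 CPM in IFNα samples and 1449 and 1148 CPM in control samples. Only Atp5a1 of this pair kept the groups apart, by a small margin to control 2. Atp5k, which encodes the membrane subunit e that joins synthase dimers, had the lowest fold change of the group, -0.61 (95% interval -1.54 to 0.32), and it rested on control 1 (0.09 without it). Its level was 26.3 and 33.4 CPM in IFNα samples and 63.1 and 28.2 CPM in control samples. Atp5s, a coupling factor that is not a fixed subunit of the synthase, had 4.71 and 4.65 CPM in IFNα samples and 4.28 and 4.67 CPM in control samples. mt-Atp6, the proton channel subunit a, had 10.6 and 14.9 CPM in IFNα samples and 15.2 and 12.9 CPM in control samples, again on counts shared with chromosome 1.

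The 3 genes Atp5g1, Atp5g2 and Atp5g3 encode the same mature ring subunit c with different import sequences. Their proportions were alike in all samples. Atp5g3 gave 48.9% and 49.0% of their summed CPM in IFNα samples, against 47.7% and 49.6% in control samples. Atp5g2 gave 37.7% and 35.8% in IFNα samples, against 38.4% and 37.7% in control samples, and Atp5g1 the remainder. Atp5g2 shares 34.7% of its windows with Gm10175, so its reads may be split.

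Genes that serve the respiratory chain but are outside the name rule were read from lists of textbook members. Among 20 assembly factors of complex IV (18 tested), Sco1 was the 1 gene called, higher, and 0 were lower. Over all genes, 1.43% were called higher and 0.222% lower. Sco1, a chaperone that delivers copper to mt-Co2, had 32.5 and 29.8 CPM in IFNα samples, against 15.1 and 12.9 CPM in control samples. Its log2 fold change was 1.15 (SE 0.15, adjusted p = 0.0272 in edgeR), and the adjusted p stayed at or under 0.0418 in all 17 alternatives.

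No gene was called in the other lists. Pnpt1, a mitochondrial RNA exonuclease known in human cells as interferon-induced, had 107 and 107 CPM in IFNα samples, against 59.2 and 65.3 CPM in control samples (log2 fold change 0.78, SE 0.12, adjusted p = 0.0508 in edgeR). It passed the threshold in 10 of 17 alternatives, with adjusted p-values up to 0.465. Idh2, the NADP-dependent isocitrate dehydrogenase of mitochondria, had 62.6 and 67.0 CPM in IFNα samples, against 111 and 95.4 CPM in control samples (log2 fold change -0.67, SE 0.14, adjusted p = 0.113 in edgeR). It passed in 7 of 17 alternatives, with adjusted p-values up to 0.998. Neither gene's groups overlapped.

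**Figure D5:**
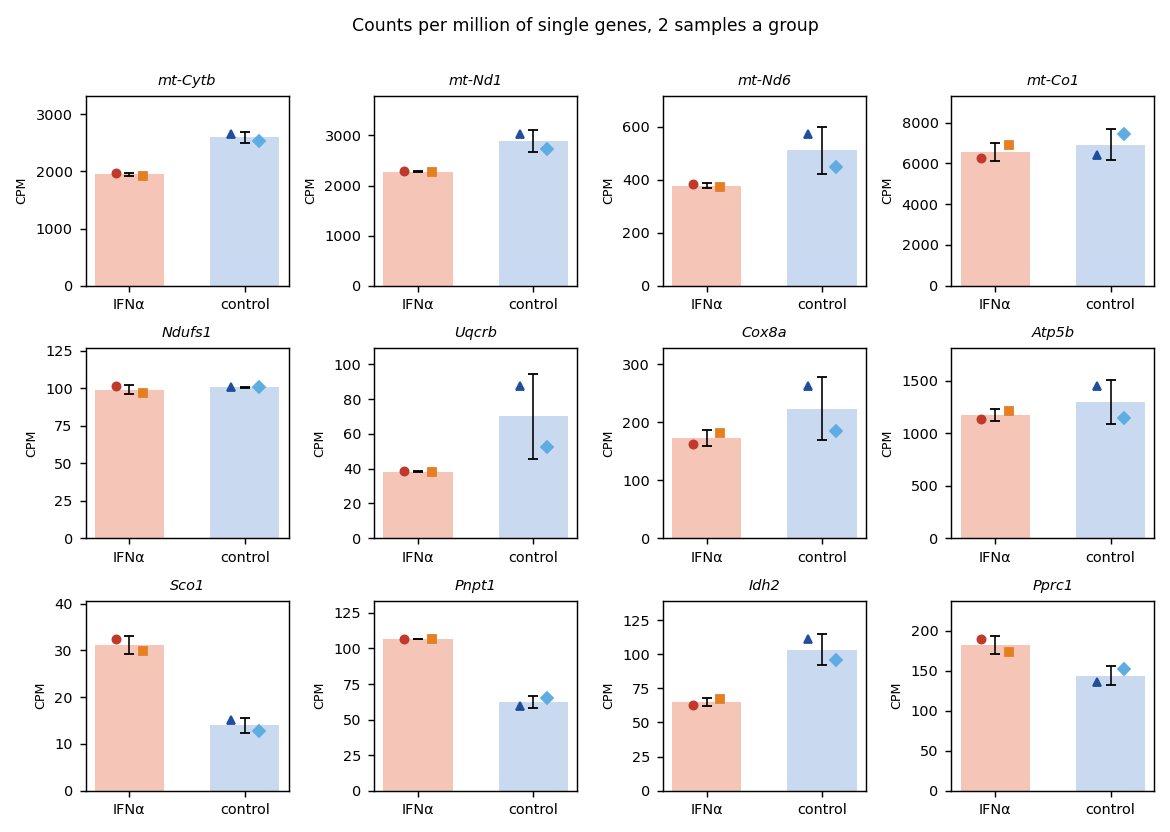
CPM of 12 genes in each sample (points), with the mean (bars) and SD (whiskers, n = 2) of the IFNα and control groups. The IFNα points lie below the control points for mt-Cytb, mt-Nd1, mt-Nd6, Uqcrb, Cox8a and Idh2, above them for Sco1, Pnpt1 and Pprc1, and among them for mt-Co1, Ndufs1 and Atp5b.

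The mitochondrial ribosomal proteins, which translate the mitochondrially encoded subunits, showed the pattern of the nuclear members. Of 77 tested, 66 had a log2 fold change below 0, with a median of -0.20 and 0 called, and their summed level was 3258 and 3546 CPM in IFNα samples, against 4489 and 3282 CPM in control samples. Mrpl45, the one with the smallest p, had 61.1 and 66.7 CPM in IFNα samples, against 111 and 77.2 CPM in control samples (adjusted p = 0.379 in edgeR). The 14 enzymes of the tricarboxylic acid cycle had a median of -0.09. The 19 tested genes of mitochondrial DNA upkeep, transcription and RNA handling had -0.05, and the 8 tested regulators of mitochondrial biogenesis had 0.04. In that list Pprc1, a coactivator of NRF1, had 190 and 174 CPM in IFNα samples, against 136 and 152 CPM in control samples (log2 fold change 0.34, adjusted p = 0.428 in edgeR).

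The smaller lists also held no call. The median log2 fold change was -0.10 over 9 other complex I assembly genes, -0.21 over 4 complex II assembly factors, -0.01 over 5 complex III partners, -0.04 over 4 complex V assembly factors and -0.26 over 10 alternative electron inputs and carriers. In those lists the genes with the smallest p were Tmem126b, a complex I assembly protein (-0.23), Sdhaf1 (-0.53), Cyc1 (-0.20), Fmc1 (-0.51) and Sqor, which passes electrons from sulphide to ubiquinone (-1.16). Sqor had 1.19 and 1.80 CPM in IFNα samples, against 3.53 and 3.19 CPM in control samples, with an adjusted p of 0.265 in edgeR.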

How the data were processed

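The authors built NEBNext Ultra libraries for an Illumina HiSeq and mapped the reads with Hisat2, and the submitters' processing notes name featureCounts of Subread. The deposited values are raw whole counts per gene for 4 samples, in a series table and in single-sample files that held the same counts (0 differed), and the deposited table also gives gene lengths. The notes name mm9, but 53585 of 54532 genes, and 101 of the 107 members, have the start and end of GENCODE M21 on GRCm38, which is used here. It is not stated whether counting used strand, so overlapping genes may share reads.

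Counts were analysed in R 4.3.3 with edgeR 4.0.16: filterByExpr (minimum 10, total 15) left 14417 genes, followed by TMM, a model with the condition as its only term, glmQLFit (robust) and glmQLFTest, with Benjamini-Hochberg adjustment over all genes and no fold threshold. CPM values use TMM-scaled library sizes, and ratios between samples add 0.5 CPM. Alternatives used DESeq2 1.42.0 and limma 3.58.1. The tests were tested on simulated data. Sequence windows were counted in both orientations over GENCODE transcripts, so copies without annotation are not seen. Named genes are the 3 markers, all mitochondrially encoded members, the highest level and the highest and lowest fold change per nuclear group, and from each list the called genes or the smallest p. Ndufaf7, Atp5b and the isoforms were added after their values were seen. The members and lists were chosen with earlier results of these data known. Intervals cover the spread between samples of this design only. Counting error depends on the counts of each gene. It is larger where these are low, as in Cox7a1 (10 to 18 counts per sample) and Cox6b2 (10 to 40). mt-Atp8, the second row of Atp5o and 6 tissue isoforms did not pass the filter. The values of 1 tested member are counted in the totals but not reported here by name.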

Additional observations from a re-analysis of the deposited data

How the results depend on the processing

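The count of members called higher was 0 in every alternative run. The count called lower was 0 under other scalings, filters, limma-voom, the length offset, the fold threshold and without either IFNα sample, but 1 with DESeq2, 1 with the exact test, 1 with the likelihood ratio test and 3 at an unadjusted p under 0.05. Leaving out 1 sample gave 0 to 82 called lower, with 4 without control 1 and 82 without control 2, where the spread comes from the IFNα samples alone. With the replicate number as a block, 0 were called (smallest adjusted p 0.087, Uqcrb). Samples of the same number did not deviate together over the tested genes (correlation of IFNα 1 with control 1 -0.129). With 2 samples a group this is a single value, and it cannot show whether samples were prepared as pairs. Crossed pairs, tried after seeing the data, called 3 of 99 lower, against 2.36% of all genes. Median log2 fold changes with a sample left out were -0.534 to -0.0112 for nuclear and -0.365 to -0.177 for mitochondrially encoded members (-0.136 with the length offset, and -0.327 without the 5 that share over 90% of their windows, an alternative chosen after seeing the data). By group they were -0.554 to -0.00168 for complex I subunits, -0.321 to -0.0557 for assembly factors, -0.433 to -0.0997 for complex II, -0.632 to -0.0101 for complex III, -0.643 to 0.00592 for complex IV and -0.530 to -0.0170 for complex V. In the other alternatives no median moved beyond the spread between samples.

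Of 676 alternative values of the 40 named genes, 596 kept sign and call, 52 passed the threshold in addition, 0 lost it and 28 changed sign, in 16 genes. With a sample left out, these genes ranged on the log2 scale over -1.07 to 0.0882 (Atp5k), -0.415 to 0.116 (Cox7a2), -0.386 to 0.0181 (Cyc1), -0.888 to 0.0244 (Fmc1), -0.465 to 0.0433 (mt-Nd3), -0.411 to 0.101 (Ndufaf8), -0.957 to 0.0800 (Sdhaf1), -0.661 to 0.0837 (mt-Nd4l), -0.181 to 0.0413 (mt-Co1), -0.242 to 0.212 (mt-Nd5), -0.128 to 0.227 (Ndufab1), -0.274 to 0.350 (Ndufaf2), -0.405 to 0.0916 (mt-Atp6), -0.126 to 0.0282 (Uqcrc2) and -0.0529 to 0.0104 (Ndufs1). With the length offset mt-Co1 (0.0627), mt-Nd5 (0.0896), Ndufab1 (-0.0553) and Uqcrc2 (0.0699) changed sign. Upper-quartile scaling gave Atp5s -0.00241, Ndufab1 -0.0334 and Ndufaf2 -0.0704, total counts gave Ndufab1 -0.00955 and Ndufaf2 -0.0434, and no filter gave Ndufaf2 -0.0035. The cause was not tested. With 2 samples a group the median half-width of the 95% intervals was 0.503 on the log2 scale, and differences above that size can also miss the threshold, as Uqcrb did at -0.869.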

Other observations

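The ribosomal RNAs of the mitochondrial genome, which the name rule leaves out, differed in how the groups were placed. mt-Rnr2, the large ribosomal RNA, had 458 and 446 CPM in IFNα samples, against 574 and 576 CPM in control samples, with a log2 fold change of -0.35 (SE 0.14, unadjusted p = 0.0446, adjusted p = 0.43 in edgeR). mt-Rnr1, the small ribosomal RNA, had 327 and 323 CPM in IFNα samples and 384 and 300 CPM in control samples, with a log2 fold change of -0.07, and control 2 lay below both IFNα samples. Of 22 mitochondrial transfer RNA genes, 12 were tested, 8 of these had a log2 fold change below 0 and 0 were called (smallest adjusted p 0.251 in edgeR, for mt-Tl2). Their summed counts were 1370 and 1506 in IFNα samples, against 1906 and 1753 in control samples.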
